A study of Mus musculus with 2 samples.

Results

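The 10 genes described here, Zbtb16, Tsc22d3, Fkbp5, Klf15, Klf9, Cebpd, Mfsd2a, Arrdc2, Sgk1 and Ddit4, are known as genes that glucocorticoid hormone induces in many tissues. They were chosen by name with their ratios on both arrays already known, so every count and ratio of the 10 is a description and supports nothing by itself. All 10 were found among 20886 genes with a probe, through the transcript accession of 11 probes, of which Arrdc2 has 2 and each other gene has 1. Every one of these probes was well above background in both channels of both arrays.

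The tissues came from male wild-type C57BL/6J mice on a high-fat diet or a normal diet for 4 weeks. The pools were the high-fat liver pool, the normal-diet liver pool, the high-fat adipose pool and the normal-diet adipose pool. For each tissue, 1 Agilent array with 2 channels held the high-fat pool in red (Cy5) and the normal-diet pool in green (Cy3), with RNA of 10 tissues combined before labelling. Whether 10 went into each diet pool is not plain from the labels. The mice's age, the fat depot and the hour of sampling are not given in the sources used here.

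Pooling and the single array leave no spread between animals, so no test was possible. No dye swap was made, and diet and the dye cannot be told apart for a probe. Ratios are on the log2 scale, with the high-fat pool on top. The error given with a ratio is the scanner software's error for 1 spot. A gene was called lower or higher at 2-fold (1 on the log2 scale). Probes printed at least 5 times on an array, in the brightness range of the 10 genes, had a median SD of 0.03 between spots in liver (89 probes) and 0.04 in adipose tissue (161 probes), which covers printing and scanning of 1 slide only. In these bulk pools, fewer cells of a type and less RNA per cell cannot be told apart. Each tissue has 1 array of its own, so array and tissue cannot be told apart either.

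Glucocorticoids act through the glucocorticoid receptor, encoded by Nr3c1, which is held ready for the hormone by heat shock chaperones and, once bound, moves to the nucleus and binds DNA. Its classical site holds the letters AGAACA and, after a gap of 3 bases, TGTTCT. In liver the receptor drives genes of amino acid breakdown and glucose output, in fat it affects adipocyte differentiation and lipid turnover, and hormone secretion follows a daily cycle.

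Promoter windows of 8 of the 10 genes were read from RefSeq (GRCm38.p6), each with 250 bases before and 50 after a transcription start, 15 windows in all because Sgk1 and Tsc22d3 have several starts. Zbtb16 and Cebpd had no window. The complete site, AGAACA and TGTTCT with 3 bases between them, was found in 1 window of Sgk1 and in 3 of all 32851 windows (0.00913%). The looser inner form ACANNNTGT was found in that window and in 1 other window of Sgk1, against 6.85% of all windows. One arm of the site, AGAACA on either strand, lay in windows of Sgk1 and Tsc22d3 and in 19.0% of all windows. CACGTG, the E-box that clock proteins bind, lay in windows of Fkbp5, Klf15 and Sgk1 and in 7.15% of all windows. TTATGTAA, a form of the D-box that Dbp binds, lay in none of the 15 and in 0.938% of all windows. Both strands were searched, and the complete site contains both the inner form and 2 arms. These matches are descriptions of letters and say nothing of binding.

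The stretches below show the matches that differ most in kind among the 10 genes, with the matched letters in capitals, 5′ to 3′ on the strand of the gene.
Sgk1, complete site, 189 to 175 bases before its start, chr10:21993681-21993735, plus strand: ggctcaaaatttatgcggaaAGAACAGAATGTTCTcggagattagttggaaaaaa
Sgk1, inner form, 127 to 119 bases before another start, chr10:21978525-21978573, plus strand: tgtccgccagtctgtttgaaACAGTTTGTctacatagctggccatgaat
Tsc22d3, one arm on the opposite strand, 185 to 180 bases before a start, chrX:140600682-140600727, minus strand: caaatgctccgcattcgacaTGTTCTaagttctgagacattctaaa
Klf15, E-box, 172 to 167 bases before its start, chr6:90462384-90462429, plus strand: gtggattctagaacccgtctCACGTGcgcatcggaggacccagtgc
Fkbp5, E-box, 169 to 164 bases before its start, chr17:28486293-28486338, minus strand: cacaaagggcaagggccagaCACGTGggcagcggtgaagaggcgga

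In liver, 9 of the 10 genes had a ratio below 0 and 3 were called lower in the high-fat pool: Zbtb16, Ddit4 and Tsc22d3. None was called higher. Their median was -0.77, beside 0.01 for all 13642 genes measured there. Of all these genes 47.7% were below 0, 0.579% were called lower and 0.491% higher. In adipose tissue, 9 of the 10 were again below 0 and 6 were called lower, namely Mfsd2a, Klf15, Fkbp5, Zbtb16, Arrdc2 and Cebpd, with none higher. Their median was -1.08, beside -0.01 for all 14315 genes, of which 50.7% were below 0, 5.13% were called lower and 4.23% higher. The adipose ratios of all genes were spread more widely, with 5% below -1.02 and 5% above 0.89, against -0.36 and 0.41 in liver. With each array centred on its median in place of the loess curve, the median of all genes lay at 0.32 in liver and 0.69 in adipose tissue. The 10 genes then had medians of -0.30 and 0.00, or -0.61 and -0.69 against the median of all genes. In that setting 2 of the 10 were called lower in liver (Zbtb16 and Ddit4) and Fkbp5 and Klf15 lay above 0. In fat 1 was called lower (Mfsd2a, -1.46) and 1 higher (Sgk1, 1.25), while Tsc22d3, Klf9, Cebpd and Ddit4 lay above 0 and Zbtb16 was at -0.33. Of all genes in that setting, 28 of 13642 were called lower and 445 higher in liver. In fat 616 of 14315 were called lower and 4208 higher.

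The size rule divides the genes at narrow margins in adipose tissue. Cebpd (-1.0) and Arrdc2 (-1.16) lay just inside it, while Ddit4 (-0.98), Tsc22d3 (-0.93) and Klf9 (-0.91) lay just outside. In liver, Tsc22d3 (-1.29) was the nearest inside, and Cebpd and Sgk1 (both -0.78) were the nearest outside. The scanner errors of the 10 genes, 0.20 to 0.33, are larger than each of these adipose margins.

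**Figure D1:**
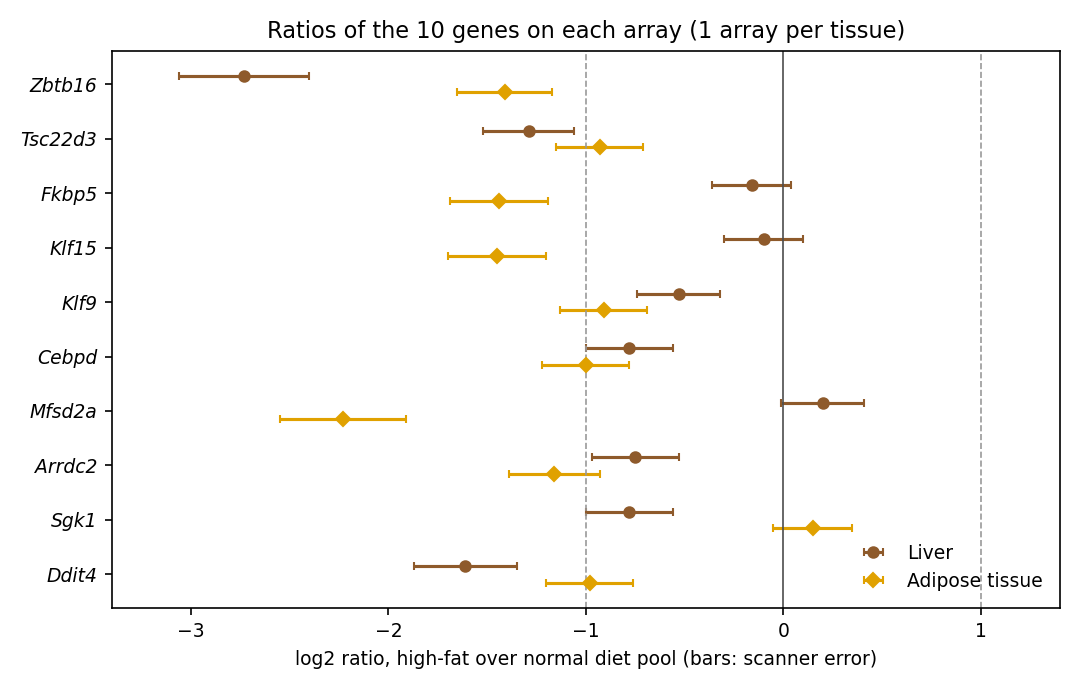
Log2 ratios (x axis, high-fat over normal-diet pool) of the 10 genes on the liver array (circles) and the adipose array (diamonds), with the scanner error as bars and dashed lines at 2-fold. All but Mfsd2a in liver (0.20) and Sgk1 in adipose tissue (0.15) lie below 0. With median centring, where the median of all genes lies at 0.32 in liver and 0.69 in adipose tissue, others lie above it. These are Fkbp5 and Klf15 in liver and Tsc22d3, Klf9, Cebpd and Ddit4 in adipose tissue.

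Zbtb16, a zinc finger repressor also called PLZF, had a log2 level of 9.59 in the high-fat liver pool and 12.32 in the normal-diet liver pool. Its ratio there was -2.73 (scanner error 0.33), a 6.63-fold difference, and 0 of the 13642 measured genes had a lower one. The ratio was -1.83 with all local backgrounds left as deposited. In the scanner's raw signals, Zbtb16 read 986 in red over a local background of 41, and 3691 in green over 29. The median probe of that array was brighter in red (127) than in green (93). Zbtb16 stood at 12.36 in the high-fat adipose pool and 13.78 in the normal-diet adipose pool, a ratio of -1.41 (error 0.24). Across the 4 pools its level was highest in normal-diet fat and lowest in high-fat liver. High-fat fat and normal-diet liver, next to each other in that order, differed by less than the scanner error when both arrays were given the same distribution of brightness.

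Tsc22d3 encodes GILZ, a leucine zipper protein that mediates anti-inflammatory actions of the hormone. It had a level of 12.44 in the high-fat liver pool and 13.72 in the normal-diet liver pool, a ratio of -1.29 (error 0.23, 2.44-fold). Only 35 of the measured liver genes had a lower ratio. In fat, Tsc22d3 stood at 14.21 in the high-fat pool and 15.14 in the normal-diet pool, a ratio of -0.93 (error 0.22). Under the same scaling, both liver pools lay below both adipose pools for this gene. With the arrays scaled by their median brightness alone, normal-diet liver minus normal-diet fat was -0.52 in place of -1.42. That is a smaller gap than the adipose ratio of -0.93, so normal-diet liver then lay above high-fat fat. Cebpd, an early transcription factor of adipocyte differentiation, had 11.97 in the high-fat liver pool and 12.75 in the normal-diet liver pool (ratio -0.78, error 0.22). It had 14.33 in the high-fat adipose pool and 15.34 in the normal-diet adipose pool (ratio -1.0, error 0.22), so that its 2 ratios differed by less than their combined scanner error of 0.31.

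Klf15 and Klf9 are Krüppel-like factors. Klf15, which promotes amino acid breakdown and glucose output in liver, had a level of 12.59 in the high-fat liver pool and 12.70 in the normal-diet liver pool. That ratio of -0.10 (error 0.20) is within the scanner error, and 26.2% of liver genes had a lower one. In fat, Klf15 had 9.46 in the high-fat pool and 10.91 in the normal-diet pool, a ratio of -1.45 (error 0.25, 2.73-fold). Klf9, a partner in hormone responses that also follows the daily cycle, had 12.42 in the high-fat liver pool and 12.95 in the normal-diet liver pool (ratio -0.53, error 0.21). It had 12.14 in the high-fat adipose pool and 13.05 in the normal-diet adipose pool (ratio -0.91, error 0.22). Klf9 was thus near one level in all pools except for its lower values on the high-fat diet, whereas Klf15 was brighter on the liver array in both diets.

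**Figure D2:**
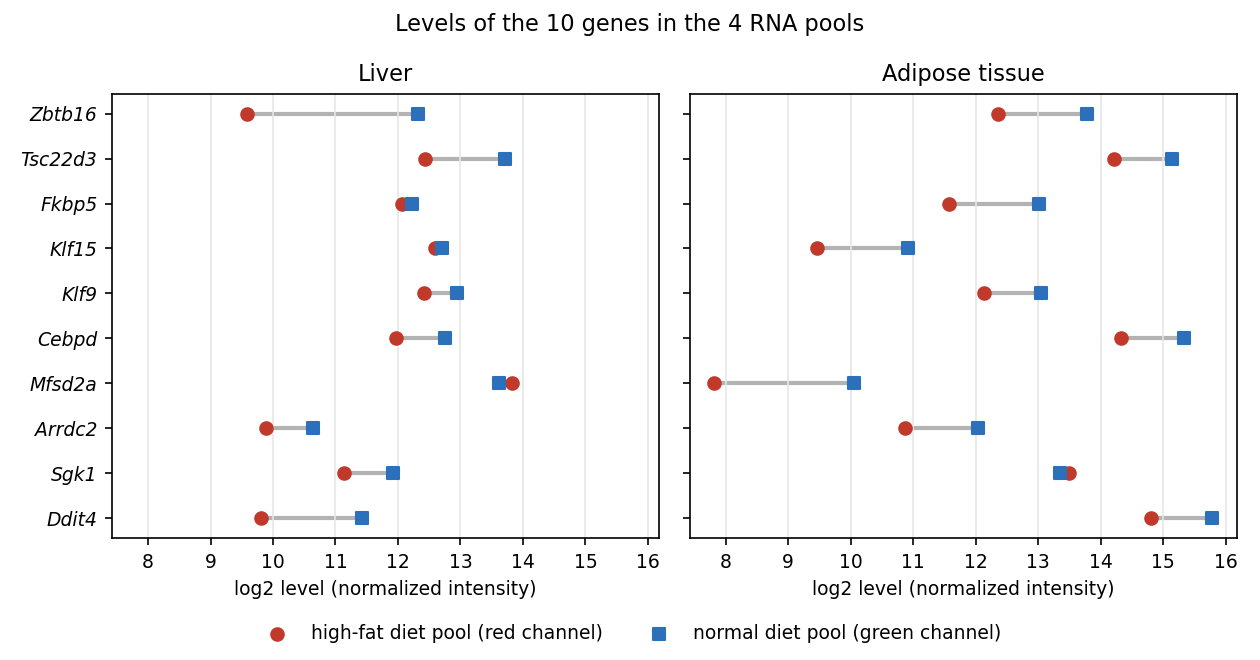
Normalized log2 levels (x axis) of the 10 genes in the high-fat pool (red circles) and the normal-diet pool (blue squares) of liver (left) and adipose tissue (right), joined by a grey line for each gene. Zbtb16 has the longest line in liver (9.59 and 12.32) and Mfsd2a the longest in fat (7.82 and 10.05). Each level belongs to its own probe, so levels of different genes are not comparable.

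Fkbp5 is the feedback member of the group, since its product FKBP51 is a co-chaperone that lowers the receptor's affinity for hormone. In liver it hardly differed, with levels of 12.06 in the high-fat pool and 12.22 in the normal-diet pool (ratio -0.16, error 0.20). In fat it had 11.57 in the high-fat pool and 13.01 in the normal-diet pool, a ratio of -1.44 (error 0.25, 2.71-fold). The adipose ratio lay 1.28 below the liver ratio, which is more than the combined scanner error of 0.32.

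Sgk1, a kinase that controls sodium channels and other transporters, is the gene with the complete receptor site above. Its levels were 11.14 in the high-fat liver pool and 11.92 in the normal-diet liver pool (ratio -0.78, error 0.22). In fat they were 13.50 in the high-fat pool and 13.35 in the normal-diet pool, a ratio of 0.15 (error 0.20) that is within the scanner error. Sgk1 was therefore the 1 gene of the 10 that was not below 0 in fat. Which of its several starts the probe reports was not analysed here.

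Ddit4 encodes REDD1, an inhibitor of the growth kinase complex mTORC1. It had a level of 9.81 in the high-fat liver pool and 11.42 in the normal-diet liver pool, a ratio of -1.61 (error 0.26, 3.05-fold), with only 12 liver genes lower. That ratio was -1.01 with all local backgrounds left as deposited. In fat it had 14.81 in the high-fat pool and 15.78 in the normal-diet pool (ratio -0.98, error 0.22), and both liver pools lay below both adipose pools. Arrdc2 belongs to the arrestin domain proteins. Its mean level was 9.89 in the high-fat liver pool and 10.64 in the normal-diet liver pool, and 10.87 in the high-fat adipose pool and 12.04 in the normal-diet adipose pool. Its 2 probes gave ratios of -0.86 and -0.65 in liver and of -1.27 and -1.06 in fat, for gene ratios of -0.75 and -1.16. The probes kept one sign and differed by less than the scanner error on each array.

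Mfsd2a, a transporter of lysophosphatidylcholine that carries omega-3 fatty acids, had the widest gap between the tissues. Its levels were 13.82 in the high-fat liver pool and 13.62 in the normal-diet liver pool (ratio 0.20, error 0.21). In fat they were 7.82 in the high-fat pool and 10.05 in the normal-diet pool, a ratio of -2.23 (error 0.32, 4.69-fold). The raw adipose signals were 540.5 in red over a background of 53 and 570 in green over 32, on an array whose median probe read 274 in red and 97 in green. The difference between the 2 ratios was -2.43, with a combined scanner error of 0.38. On the adipose array 15 of 23 hepatocyte markers were called lower and 4 higher, with a median of -3.63. Their part in the adipose ratio of Mfsd2a was not tested.

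On both arrays, 8 of the 10 genes were below 0, beside 26.1% of the 12689 genes measured on both. Zbtb16, Tsc22d3, Cebpd, Arrdc2 and Ddit4 were at least 1.5-fold lower on both arrays, as were 0.402% of all genes. Zbtb16 was at least 2-fold lower on both, among 12 genes in all (0.0946%). The other 11 were Cyp3a16, Cyp3a11, Cyp3a59, Elovl3, Pdk4, Cxcl13 and the muscle genes Myh4, Tnnc2, Pgam2, Tnni2 and Tnnt3. With median centring 2 of the 10 were below 0 on both arrays (Zbtb16 and Arrdc2), and 0 were at least 1.5-fold or 2-fold lower on both. The median of all genes lay at 0.32 in liver and 0.69 in fat in that setting. No share of all genes over both arrays was taken there, so these 2 counts have nothing beside them. The ratio was lower in fat than in liver for 6 of the 10 and lower in liver for 4. The gaps past 2 times the combined scanner error were those of Mfsd2a, Klf15 (-1.35, combined error 0.32), Fkbp5, Zbtb16 (1.32, combined error 0.41) and Sgk1 (0.93, combined error 0.30). These differences are not tested, with 1 array for each tissue. No share of all genes was taken for these gaps or for the counts of 6 and 4. The adipose ratios of all genes were spread more widely than those in liver.

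**Figure D3:**
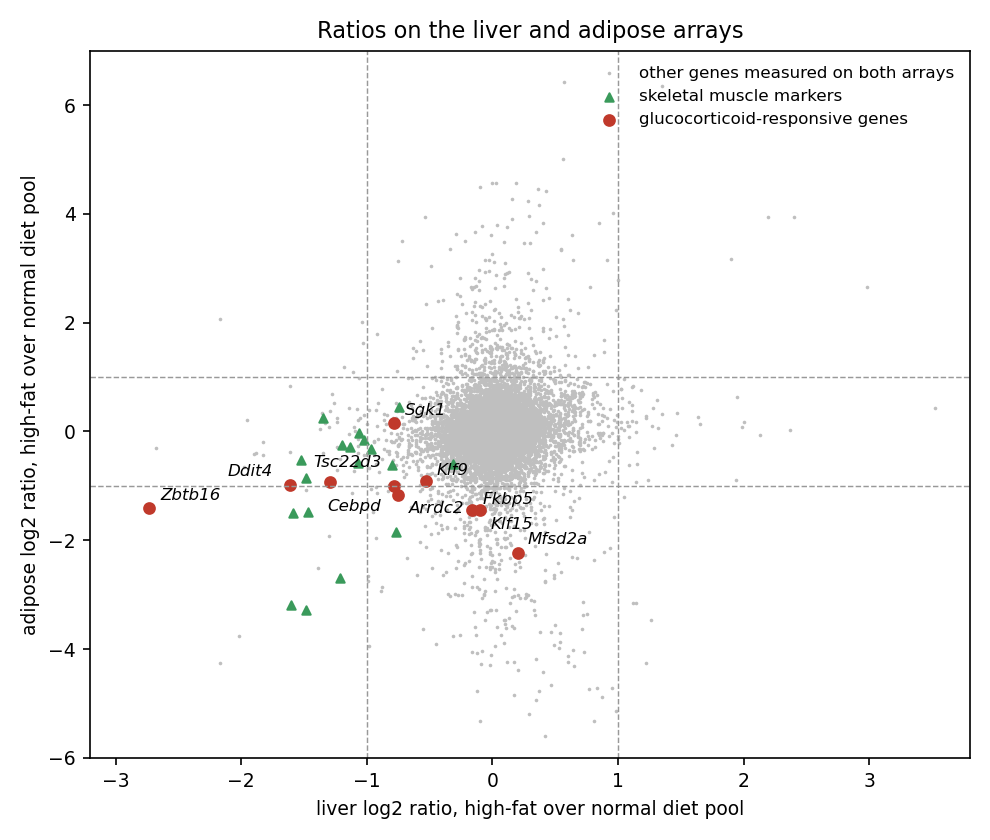
Log2 ratio on the adipose array (y axis) against that on the liver array (x axis) for the 12689 genes measured on both, with the 10 genes in red and skeletal muscle markers as green triangles. Dashed lines mark 2-fold. Zbtb16 lies at -2.73 and -1.41, the lowest of all genes in liver, while Klf15, Fkbp5 and Mfsd2a lie near 0 in liver and below -1 in fat.

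Levels between tissues rest on giving both arrays the same distribution of brightness. In the normal diet, 2 of the 10 genes were brighter on the liver array and 8 on the adipose array. No share of all genes was taken for this split. Mfsd2a was 3.56 higher in normal-diet liver than in normal-diet fat on the log2 scale (11.8-fold), and Klf15 1.78 higher (3.44-fold). Ddit4 was at -4.37 (20.6-fold lower in liver) and Cebpd at -2.58 (5.99-fold lower). With the arrays scaled by their median brightness alone these differences were 4.05, 2.25, -3.70 and -1.76. Klf9 was at -0.09 and changed sign, to 0.58. In the high-fat diet, liver minus fat was 6.00 for Mfsd2a and -5.00 for Ddit4.

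The genes whose pair of ratios lay nearest to that of Zbtb16, by straight-line distance over the 2 arrays, were Bcl6 (distance 1.07), Cdkn1a (1.1), Tnni2 (1.14), Ddit4 (1.20) and Tnnt3 (1.27). Bcl6, a transcriptional repressor, was at -1.98 in liver and -0.65 in fat, and Cdkn1a, the cell cycle inhibitor p21, at -2.68 and -0.31. Tnni2 and Tnnt3 encode troponins of fast muscle fibres. Nearest to Tsc22d3 were Actn3 (0.21), also of fast fibres, Csad (0.23), Pdk4 (0.24), Cxcl13 (0.27) and Fbxo32 (0.28), a ubiquitin ligase of muscle wasting. With 2 arrays, a shared position describes only these pools.

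Other known targets of the hormone, a list of 40 genes written with earlier results of these data known, moved less as a group. In liver 6 of 39 measured were called lower and 0 higher, beside 0.579% and 0.491% of all genes, with a median of -0.08. The 6 were Cdkn1a, Bcl6, Pdk4 (-1.48), which restrains glucose oxidation, Gadd45b (-1.14), a stress response gene, Fbxo32 (-1.10) and Trim63 (-1.04), another ubiquitin ligase of muscle wasting. Enzymes that the hormone induces in hepatocytes stayed within 2-fold there: G6pc was at -0.52, Tat at -0.48, Pck1 at -0.41, Tdo2 at -0.14 and Sds at 0.08. Igfbp1 (-0.98), Gadd45g (-0.83) and Nfkbia (-0.66) also fell short of 2-fold. Below 0 were 23 of the 39 genes, beside 47.7% of all genes. The metallothioneins Mt1 (0.73) and Mt2 (0.53) and Lcn2 (0.76), an iron-binding acute phase protein, lay above 0. Per1, a clock gene with a direct receptor response, was at 0.07, and Dusp1, a phosphatase that damps inflammatory kinases, at -0.46.

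In fat, 8 of 37 measured members of that list were called lower and 1 higher, beside 5.13% and 4.23% of all genes, with a median of -0.37. Igfbp1 (-3.94), Agxt (-3.11), Tat (-2.51) and Tdo2 (-1.91) are genes of hepatocytes. On the same array 15 of 23 hepatocyte markers were called lower, with a median of -3.63 and a log2 summed level of 17.95 in the high-fat pool and 19.08 in the normal-diet pool. The part of these markers in the 4 ratios was not tested. Rgs2 (-1.45), a brake on G protein signalling, Gadd45g (-1.09), Pdk4 (-1.08) and Sult1e1 (-1.04), an oestrogen sulphotransferase, were the others called lower, and Anxa1 (1.04), an anti-inflammatory annexin, was higher. Per1 was at -0.76. For the further lists below, the same shares of all genes on each array stand beside the counts.

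The receptor gene itself, Nr3c1, was at 0.12 in liver and -0.13 in fat. Hsd11b1, which regenerates active hormone inside cells, was at -0.05 in liver and -0.45 in fat, and H6pd, which supplies its cofactor, at -0.62 and -0.37. Hsd11b2, which inactivates the hormone, was not well above background on either array. In liver, 0 of 23 measured genes of this list were called lower and 1 higher. That gene was Akr1c6 (1.22), a steroid dehydrogenase at a level of 16.76 in the high-fat pool and 15.54 in the normal-diet pool. Genes of such brightness (16 to 18) had a median of 0.37 on that array. Serpina6, the hormone's carrier in blood, was at 0.68 in liver, and the chaperone gene Fkbp4, whose product competes with FKBP51 for the receptor, at 0.42 in liver and 0.01 in fat. The heat shock gene Dnajb1 was at -0.59 in liver. In fat 1 of 20 was lower (Akr1c6, -4.26) and 1 higher (Abcb1a, 1.31, a drug efflux pump), with the chaperone genes Ptges3 at -0.65 and Bag1 at -0.51. Akr1c6 had a level of 10.32 in the normal-diet adipose pool, far below its liver levels. The part of the hepatocyte markers in its adipose ratio was not tested.

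Among 17 co-regulators of the receptor none was called on either array. In liver Stat5b (-0.35), Cebpa (0.33), Ncoa2 (0.28) and Ncor1 (0.26) had the largest ratios. In fat they were Cebpa (-0.85), Stat5a (-0.66), Stat5b (-0.33) and Med14 (-0.30). Cebpa encodes a master regulator of both hepatocytes and adipocytes, and the Stat5 proteins bind to the receptor in liver.

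Relatives of the 10 genes did not share their ratios as a group, with a median of -0.01 over 39 measured in liver and 0.01 over 42 in fat. Tsc22d1, of the same family as Tsc22d3, was higher in liver (1.64), and Klf10 was lower (-1.24), with Klf2 at -0.59 and Mfsd2b at 0.50. In fat Klf5 (2.94) and Klf14 (1.39) were higher and Arrdc5 (-1.12) lower, with Arrdc3 at -0.99. All 22 measured markers of small intestine were at least 2-fold higher on that array (median 3.79), and Klf5 is also an intestinal epithelial factor. Their part in its ratio was not tested. Of 32 genes of mTORC1, insulin and fasting control, none was called in liver, where Ndrg1, a substrate of SGK1, was at -0.94, Ppp1r3c at -0.92, Nedd4l, a ubiquitin ligase that SGK1 restrains, at -0.79 and Asns at -0.74. In fat 2 of 32 were lower, Aass (-2.25), of lysine breakdown, and Ppp1r3c (-1.14), a glycogen-targeting phosphatase subunit, with Asns at -0.97. Aass had a level of 15.19 in the normal-diet liver pool and 9.32 in the normal-diet adipose pool. The part of the hepatocyte markers in its adipose ratio was not tested.

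**Figure D4:**
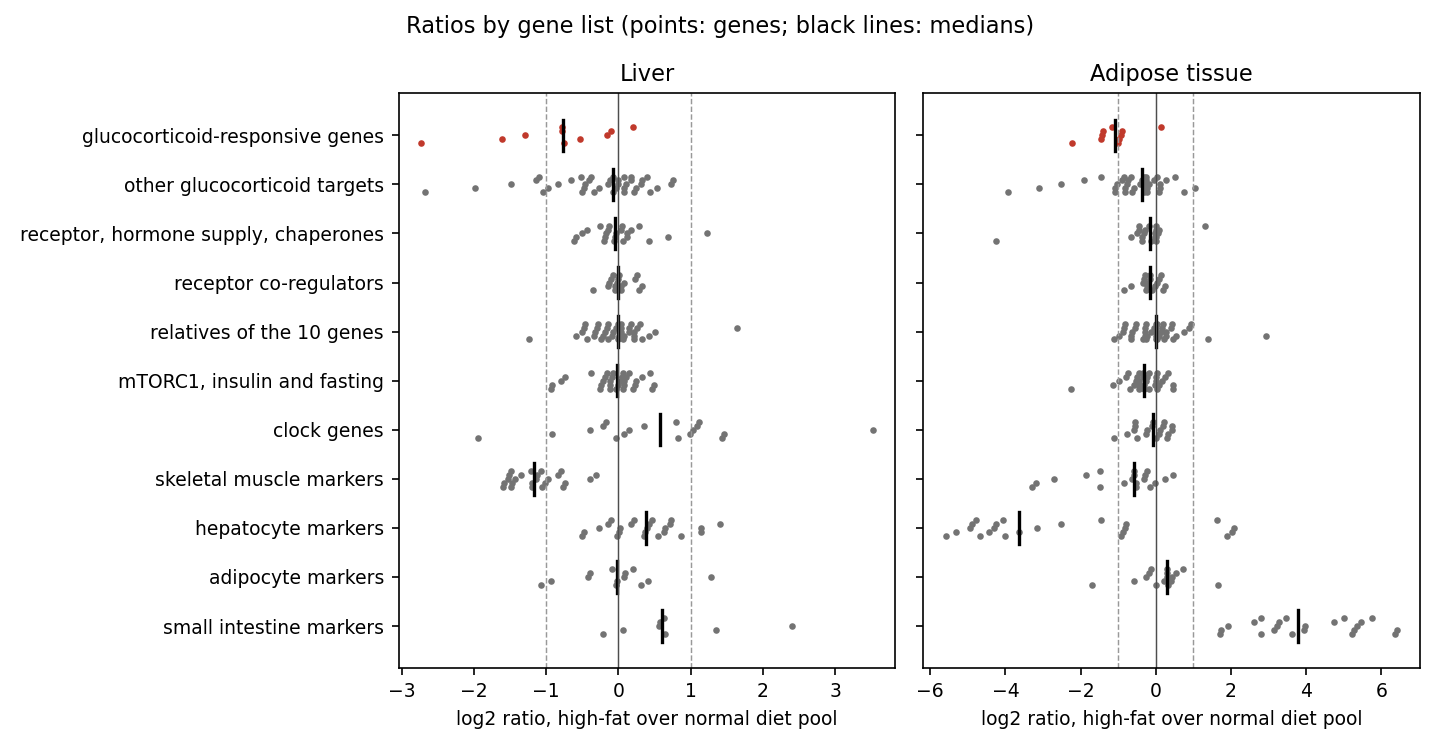
Log2 ratios (x axis, high-fat over normal-diet pool) of single genes by list for liver (left) and adipose tissue (right), on separate scales, with black lines at the medians and dashed lines at 2-fold. The 10 genes (red) have medians of -0.77 and -1.08, and the skeletal muscle markers -1.17 and -0.58. With median centring the median of the 10 in fat was 0.00 and that of all genes 0.69.

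Markers of another tissue were also lower in the high-fat liver pool. All 24 measured skeletal muscle markers were below 0 and 17 were called lower, with ratios from -1.60 to -0.31 and a median of -1.17. Their log2 summed level was 14.94 in the high-fat liver pool and 16.30 in the normal-diet liver pool, and none of them was below background in both channels. Zbtb16 (-2.73) lay well below that range, Ddit4 (-1.61) at its lower end and Tsc22d3 (-1.29) inside it. Cebpd, Sgk1, Arrdc2 and Klf9 also lay inside that range, and Fkbp5, Klf15 and Mfsd2a lay above it. In fat, 6 of 19 muscle markers were called lower (median -0.58), the summed level was 13.06 in the high-fat pool and 14.54 in the normal-diet pool, and Myh1, Mylpf, Tnni1 and Ttn were not well above background. Muscle expresses several of the 10 genes, and its part in their ratios was not tested.

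The labelled tissues held their defining markers. In liver 24 of 24 hepatocyte markers were measured (median ratio 0.38), and in fat 16 of 16 adipocyte markers (median ratio 0.31). Being measured does not set the tissues apart. In fat 23 of 24 hepatocyte markers were measured, and in liver 13 of 16 adipocyte markers. Markers of further tissues were present in fat. The intestinal markers had a summed log2 level of 19.84 in the high-fat adipose pool and 15.96 in the normal-diet adipose pool. Exocrine pancreas markers, with 14 of 18 called lower, had 12.65 in the high-fat adipose pool and 14.86 in the normal-diet adipose pool. Testis and epididymis markers, with 9 of 10 called lower, had 13.16 in the high-fat adipose pool and 16.42 in the normal-diet adipose pool. Hepatocyte markers, with 15 of 23 called lower and 4 higher, had 17.95 in the high-fat adipose pool and 19.08 in the normal-diet adipose pool. The part of these tissues in the adipose ratios of the 10 genes was not tested.

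Many clock genes differed in liver, where 6 of 18 measured were called higher and 1 lower. Those higher were Dbp (3.52), Wee1 (1.46), Usp2 (1.43), Nr1d1 (1.11), Cry2 (1.09) and Nr1d2 (1.03), and the core activator Arntl was lower (-1.95). In fat 0 of 19 were higher and 1 lower (Hlf, -1.11), with Per1 at -0.76, Nfil3 at -0.59 and Clock at -0.55. The hour of sampling being unknown, its part in the ratios of the 10 genes was not tested.

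**Figure D5:**
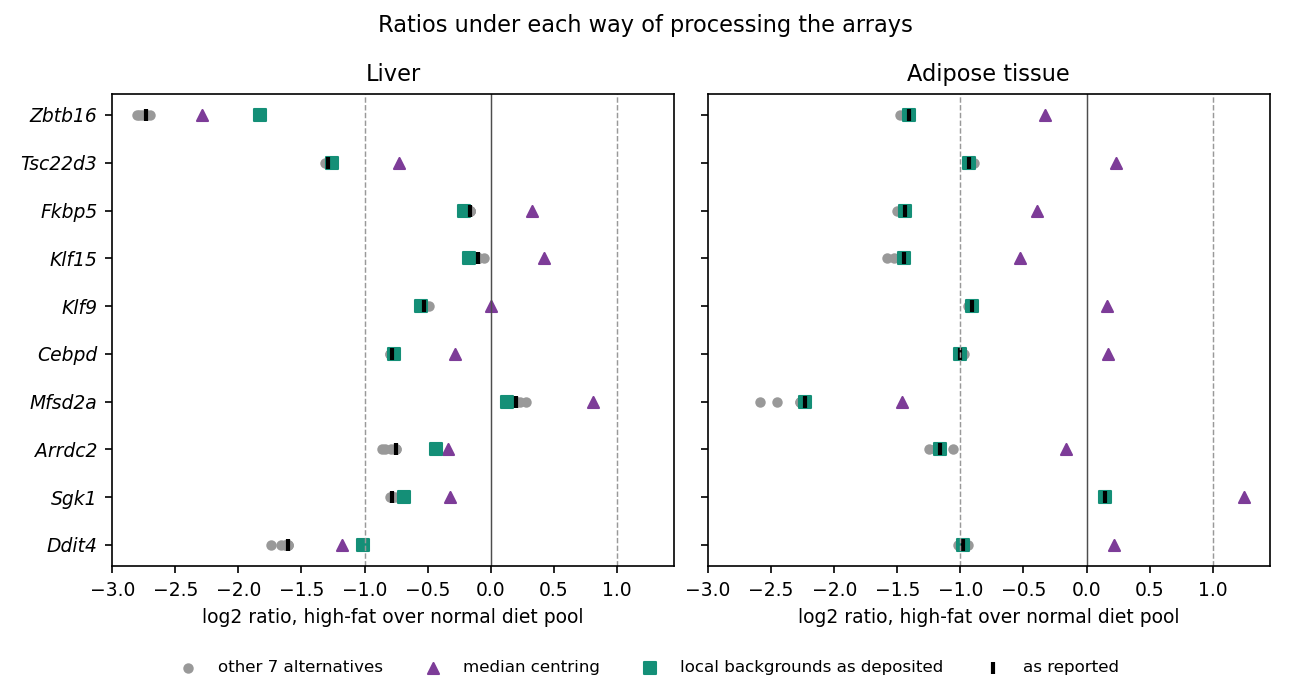
Log2 ratios (x axis, high-fat over normal-diet pool) of the 10 genes in liver (left) and adipose tissue (right) as reported (black bars) and under 9 alternatives, of which median centring (triangles) and local backgrounds as deposited (squares) are marked. Median centring puts Cebpd in fat at 0.17, where the median of all genes lies at 0.69. Local backgrounds as deposited put Zbtb16 in liver at -1.83 and Ddit4 in liver at -1.01.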

How the data were processed

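The deposited scanner files hold an intensity for each spot and each local background, as a pixel median per channel and not normalized. They also hold a log10 ratio (red over green) with its log10 error, which the scanner software computed after correcting background and dyes, per the file headers. The headers name Agilent Feature Extraction 11.5.1.1 and annotation build mm9, whereas version 8.5.1.1 stands in the submitters' processing notes.

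Here, local backgrounds marked as outliers were set to the channel's median on that array. Background was then corrected by normexp (offset 50) and dyes balanced by loess with control spots at weight 0 (limma 3.58.1, R 4.3.3). Log2 values were averaged over spots of a probe, then over probes of a gene. A gene counted as measured when a probe was well above background in both channels. Of 39429 probes, 27508 matched 1 gene. Levels of a channel were taken after Aquantile scaling of the 2 arrays. Normalization and gene averaging were tested on simulated data. The number of arrays limits the precision.

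The 10 genes, the other lists, the alternatives and the treatment of outlying local backgrounds were chosen with earlier results of these data known. The text names, from each further list, genes past 2-fold and those with the 4 largest ratios on an array, the 5 genes nearest to Zbtb16 and to Tsc22d3, and further members picked after their values were seen. One gene that this rule names is not reported here. Alternatives were the software's ratio, no background subtraction, an offset of 10, all local backgrounds as deposited, median centring, a running median by brightness, 2 looser filters on dim probes, the brightest probe per gene, and genes past 2 times the scanner error.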

Additional observations from a re-analysis of the deposited data

Results flagged for a closer look

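Mfsd2a and Sgk1 had ratios of opposite sign in the 2 tissues. Mfsd2a was at 0.20 in liver and -2.23 in adipose tissue, and Sgk1 at -0.78 in liver and 0.15 in adipose tissue. The difference was not tested, because each tissue has 1 array, and in each case the ratio above 0 is within 1 scanner error as reported. With median centring the ratios above 0 were larger, at 0.81 for Mfsd2a and 1.25 for Sgk1. The median of all measured genes then lay at 0.32 in liver and 0.69 in adipose tissue, so measured genes in general had higher ratios there. The rise was not the same for each gene. In fat Mfsd2a went from -2.23 to -1.46 and Ddit4 from -0.98 to 0.22. In that setting Fkbp5 (0.33 in liver and -0.39 in fat), Klf15 (0.42 and -0.53), Tsc22d3 (-0.73 and 0.23), Cebpd (-0.28 and 0.17) and Ddit4 (-1.18 and 0.22) also had opposite signs.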

How the results depend on the processing

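Of the 40 values of the 4 summaries (the count called lower and the median, per tissue) under 10 alternatives, 37 stayed close to those reported, and the 3 others came from median centring. Centring each array on its median put the median of the 10 genes at -0.30 in liver and 0.00 in fat, and that of all genes at 0.32 and 0.69. It left 1 of the 10 called lower in fat (Mfsd2a), and put Cebpd in fat at 0.17. This setting subtracts 1 constant per array, so a dye difference that changes with brightness remains in the ratios. In liver, Zbtb16 and Ddit4 were called lower under all 10 alternatives and Tsc22d3 under all but median centring (-0.73). With local backgrounds as deposited, the liver ratio of Zbtb16 was -1.83 and that of Ddit4 -1.01. Cebpd and Ddit4 in fat changed sides of the 2-fold line with small shifts, and the cause was not tested. Counts of all genes called lower and higher moved too. In liver they were 79 and 67 as reported, 157 and 138 with the software's ratio, 35 and 20 with backgrounds left as deposited, 28 and 445 with median centring, 79 and 116 with probes above background in 1 channel, and 78 and 103 with no filter. In fat they were 735 and 605 as reported, 1230 and 901 with the software's ratio, and 616 and 4208 with median centring. All 20 differences in level between tissues moved by more than the combined scanner error with median scaling of brightness.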
